A study of Drosophila melanogaster with 4 samples.

Results

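The centromere-proximal ends of 4 chromosome arms of Drosophila melanogaster were examined for regions enriched with an antibody against POF, a protein that coats chromosome 4. A region belonged to an end when the midpoint of its deposited limits lay above 21 Mb on 2L, above 22.5 Mb on 3L, above 20.4 Mb on X, or at or below 2 Mb on 3R, in FlyBase release 5 coordinates. The 4 ends were between 2 and 2.04 Mb long and together made up 8.08 Mb, or 8.25% of these arms. They held 139 of the 3139 regions of replicate 1, 128 of the 2853 regions of replicate 2 and 509 of the 11489 regions of the combined list, which the authors made from the replicate set. The choice used position only and no measured value.

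The study immunoprecipitated chromatin of whole wild-type Oregon-R embryos at 14 to 16 h of development with the POF antibody MO 459 and sequenced it (ChIP-seq). Its 4 samples are 2 ChIP replicates and 2 inputs, the total chromatin set against each ChIP replicate. All samples share strain, genotype and stage, the embryos were fixed in 1.8% formaldehyde, and a whole embryo mixes many cell types. Separate embryo collections are not stated for the replicates, and their spread may thus be purely technical. The lists carry no read counts, so depth is unknown, and a region too weak to be called cannot be told from one that is absent.

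POF is an RNA-binding protein that coats chromosome 4, the small and largely heterochromatic autosome, where it acts on the output of genes. Next to the centromeres the large arms pass into pericentric heterochromatin, which is rich in repeats, poor in genes and marked by HP1a and methylated histone H3 lysine 9. HP1a also lies on chromosome 4, together with POF. The sequence of each arm in the assembly stops before the centromere, so distances below are measured from the assembled end of the arm on its centromere side.

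Taken as 1 set, the ends held fewer regions than the remainder of the same arms. There were 17.2 regions per Mb in the ends of replicate 1 against 25.0 in the remainder. The figures of replicate 2 were 15.8 and 22.8. The ratio of the densities was 0.691 ± 0.00479 (SD, n = 2 replicates), and the ratio of covered sequence, with each base counted once, was 0.677 ± 0.00243. Both replicates lay on the same side, and the gap was larger than the spread between them. That spread was smaller than on any single arm, as it pools arms that moved opposite ways. From replicate 1 to replicate 2 the density ratio rose from 0.549 to 0.735 on 2L. It fell from 0.363 to 0.251 on 3L and from 1.54 to 1.42 on 3R. Flipping the signs of both replicates in every way (exact permutation, two-sided) gave p = 0.5 for each pooled ratio. With 2 replicates no smaller p exists, so no such comparison can pass 0.05 here. The combined list, which has no replicate, gave 63.0 and 91.8 regions per Mb, with ratios of 0.686 for density and 0.679 for coverage.

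That set hid opposite patterns. The ends of 2L, 3L and X were sparser than the remainder of their arm in every list, and the end of 3R was denser than its own remainder in every list. On 3L the density of the end was 8.32 per Mb in replicate 1 and 4.89 in replicate 2, and that of the remainder was 22.9 and 19.5. On X it had 9.39 and 8.90, against 28.3 and 26.0. On 2L the end had 13.4 and 16.4, against 24.4 and 22.3. On 3R the order was the other way, with 38.0 and 33.5 regions per Mb in the end and 24.7 and 23.6 in the remainder. In no arm did the replicate values of the end and of the remainder overlap.

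The mean density ratio was 0.307 ± 0.0792 on 3L, 0.337 ± 0.00737 on X, 0.642 ± 0.131 on 2L and 1.48 ± 0.0816 on 3R (SD, n = 2 each). The spreads of 3L and X overlap, so these arms were not separated, and differences between arms were not tested. In the combined list the ratios were 0.471 on 3L, 0.475 on X, 0.617 on 2L and 1.18 on 3R, which is nearer to 1 than in the replicate lists on every arm except 2L. Because 3R supplied 76 of the 139 regions in replicate 1 and 67 of the 128 in replicate 2, the ratio over the other 3 arms was lower than over all 4, at 0.429 ± 0.0237 in the replicate lists and 0.519 in the combined list.

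**Figure D1:**
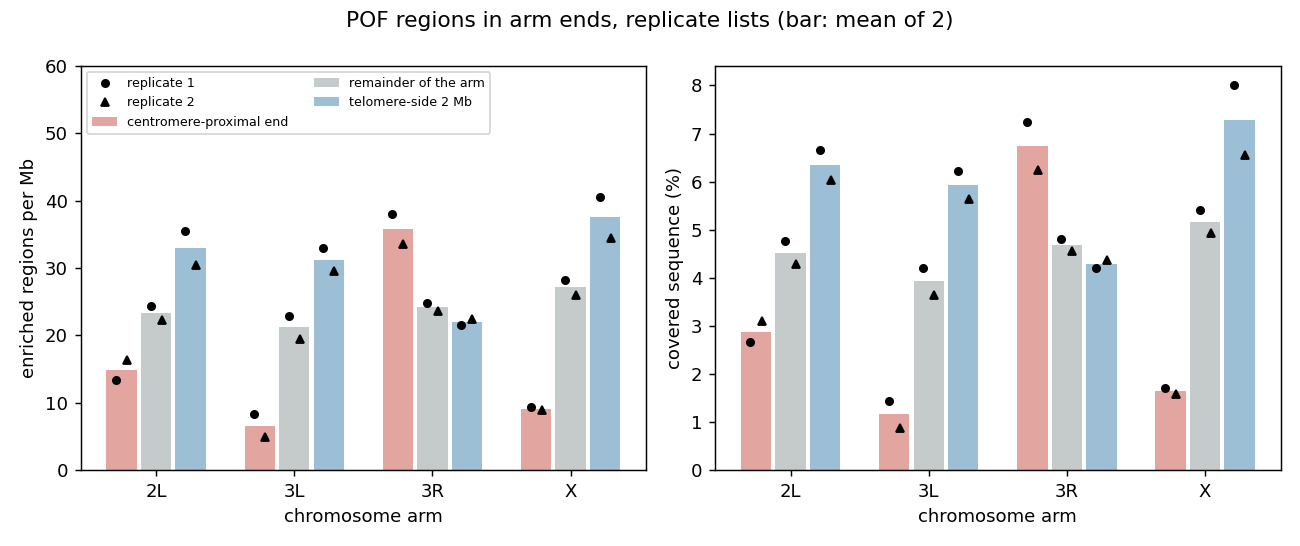
Enriched regions per Mb (left axis panel) and covered sequence in percent (right panel) by arm, for the centromere-proximal end, the remainder of the arm and the telomere-side 2 Mb; bars are means of the 2 replicate lists, and points are the replicates. The ends of 2L, 3L and X lie below the remainder and the telomere side of their arm, and the end of 3R lies above both.

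Covered sequence showed the same order. Regions covered 1.17% ± 0.400 of the 3L end, 1.64% ± 0.0868 of the X end, 2.88% ± 0.308 of the 2L end and 6.73% ± 0.704 of the 3R end (SD, n = 2). The remainders lay close together, between 3.93% ± 0.395 on 3L and 5.17% ± 0.339 on X. In the combined list the ends were covered to 6.45% on 3L, 6.79% on X, 8.54% on 2L and 20.4% on 3R. For comparison, chromosome 4 was covered to 13.1% and 13.6% in the 2 replicates and to 24.8% in the combined list, so every end lay below it in all 3 lists.

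Each arm was also divided into consecutive blocks of 2 Mb, counted from its assembled centromere-side end. The first block was the least covered of 12 on 3L and of 11 on X in all 3 lists. On 3R it was the most covered of 13 in all 3 lists, at 7.23%, 6.24% and 20.4%, where the next best block reached 5.77%, 5.88% and 18.5%. On 2L it was the least covered of 11 in replicate 1 and in the combined list, but ranked 7 from the top in replicate 2, at 3.12% against a lowest value of 2.82%.

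The telomere-side 2 Mb of the same arms served as the other kind of arm end. They held 33.0 ± 3.54 regions per Mb on 2L, 31.2 ± 2.47 on 3L and 37.5 ± 4.24 on X, all above the remainder of their arm, and 22.0 ± 0.707 on 3R (SD, n = 2). The proximal end of X therefore had 0.245 ± 0.0184 times the density of its telomere side, that of 3L 0.209 ± 0.0610 times and that of 2L 0.458 ± 0.113 times. On 3R the ratio was 1.63 ± 0.197. Each of these had both replicates on 1 side of 1 (exact two-sided sign-flip permutation p = 0.5 each, the smallest possible). The 3R end itself, at 35.8 ± 3.18 regions per Mb (SD, n = 2), lay within the range of the telomere sides of 2L, 3L and X. In the combined list it was covered to 20.4%, below the 20.7%, 22.8% and 22.1% of those telomere sides.

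Pooled over 2L, 3L and X, the regions thinned out towards the assembled end. On 2L and 3L the innermost 500 kb held no more regions than any other step of the end in both replicates, and on X this was so in replicate 2 and not in replicate 1. Over these 3 arms, in steps of 500 kb starting at the end and moving outwards, the replicate lists had 4.33 ± 1.41, 8.00 ± 0.943, 13.3 ± 0.943 and 15.7 ± 2.36 regions per Mb (SD, n = 2). The next step, from 2 to 2.5 Mb and outside the ends, had 25.0 ± 1.41, and the one from 2.5 to 3 Mb had 34.0 ± 3.77. Neighbouring steps differed by more than either SD, except those from 1 to 1.5 and from 1.5 to 2 Mb. These SDs hold only the spread between the 2 replicate lists, and differences between steps were not tested. In the combined list the density also went up with each step inside the ends, with 29.3, 41.3, 46.7 and 72.0 regions per Mb, and on to 107 from 2 to 2.5 Mb, but it was lower again, at 102, from 2.5 to 3 Mb.

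The thinning was steepest on 3L. Replicate 1 had 1, 1, 5 and 10 regions in the 4 steps of the 3L end, and replicate 2 had 0, 0, 1 and 9. The nearest replicate 2 region to the assembled end of 3L ran from 23250901 to 23252738, so the 1292 kb between its midpoint and the end of the sequence held no other. In replicate 1 a region from 24113631 to 24114936 lay nearest, separated by 539 kb from the one before it. This was the longest gap between neighbouring regions inside an end in the replicate lists. Gaps of similar or greater length also lay in the remainder, with 520 kb on 2L in replicate 1. In replicate 2 the remainder had gaps of 658 kb on 2L and 806 kb on 3L. Near the assembled end of 3L the combined list did hold regions, 24 within 1 Mb of the end, the nearest from 24529490 to 24530801.

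2L and X were less regular. On 2L the steps held 2, 8, 7 and 10 regions in replicate 1 and 4, 8, 7 and 14 in replicate 2. The 2 regions of the innermost step in replicate 1 and the 4 in replicate 2 stood apart, behind a gap of 516 kb in replicate 1 and 442 kb in replicate 2. On X the steps held 5, 4, 9 and 1 regions in replicate 1 and 1, 3, 11 and 3 in replicate 2, so the step from 1 to 1.5 Mb was the fullest in both, and the outermost step held the fewest regions in replicate 1. Low coverage was also met far from the centromere: the step of 2L from 5 to 5.5 Mb was covered to 0.287% ± 0.406 and its innermost 500 kb to 1.16% ± 0.617 (SD, n = 2).

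The end of 3R showed no such thinning. Its steps held 19, 16, 29 and 12 regions in replicate 1 and 18, 9, 29 and 11 in replicate 2. The step from 1 to 1.5 Mb had 58.0 regions per Mb in both replicates and was covered to 11.0% ± 0.585, and the innermost 500 kb were covered to 7.42% ± 0.359 (SD, n = 2). The 2 steps just outside the end, from 2 to 3 Mb, were covered to 3.62% ± 0.588 and 5.04% ± 0.992. In the combined list a region from 43 to 2031 lay at the very start of the arm sequence, but it met no region of either replicate. The nearest replicate regions started at 45723 in replicate 1 and at 45623 in replicate 2.

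**Figure D2:**
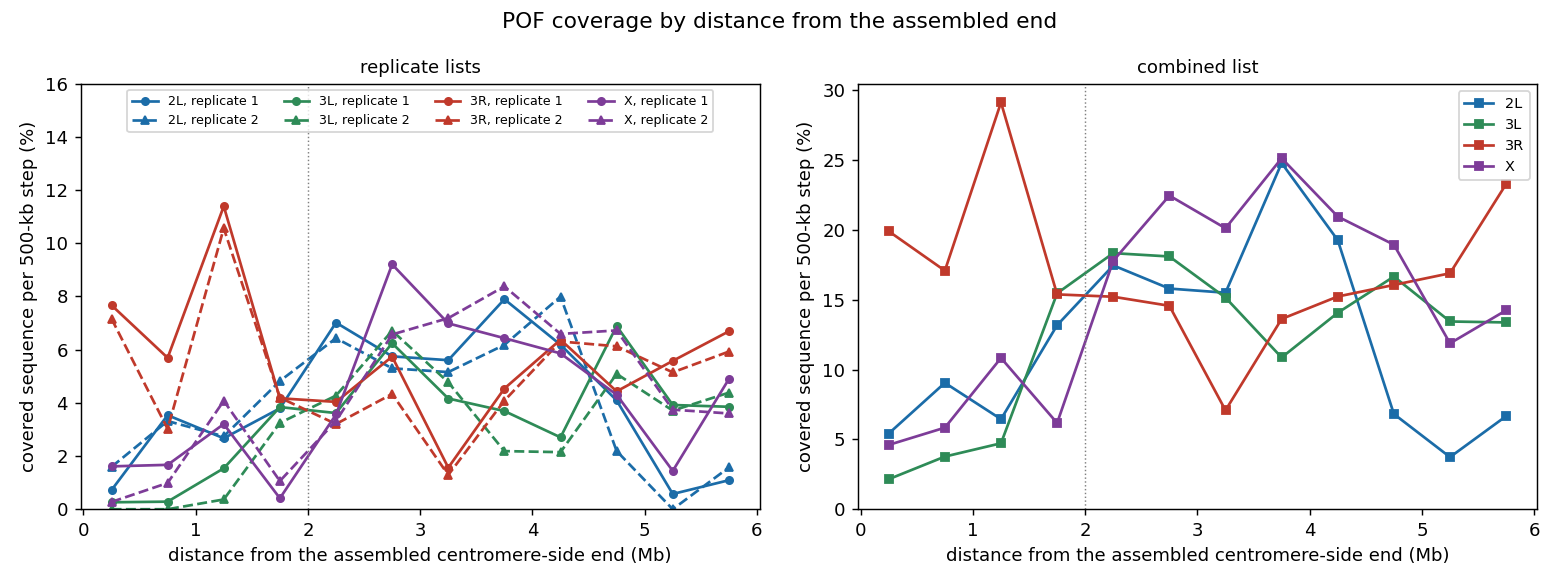
Covered sequence per 500-kb step (percent) against distance from the assembled centromere-side end (Mb) for each arm, in the 2 replicate lists (left, solid and dashed lines) and the combined list (right); the dotted line marks 2 Mb. The innermost 500 kb of 2L, 3L and X lie below the remainder of their arm in every list, the step from 1.5 to 2 Mb of 3L reaches 15.5% in the combined list against 14.7% in the remainder, and the 3R line peaks between 1 and 1.5 Mb in all 3 lists.

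Windows of 100 kb counted from the assembled end, 20 in each end, gave a rank correlation between distance and coverage. On 3L, Spearman's rho was 0.788 and 0.686 in the replicates and 0.624 in the combined list. On 2L it was 0.324, 0.241 and 0.403. On X it was -0.149, 0.207 and 0.320, so the replicates had opposite signs (mean 0.0288 ± 0.252, SD, n = 2, exact two-sided sign-flip permutation p = 1), and on 3R it was -0.101, -0.120 and 0.0226. Over all 80 windows it was 0.187 ± 0.00586 in the replicate lists (SD, n = 2, exact two-sided sign-flip permutation p = 0.5, the smallest possible) and 0.297 in the combined list. The replicate mean was 0.0716 without 3L, 0.314 without 3R and 0.114 in the better scoring 50% of each list. Neighbouring windows are not independent, and the windows of a list come from the same library, so rho describes these lists only.

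Empty windows were common in the sparse ends. In replicate 1, 28 of the 80 windows in the ends had no region, or 35.0%, where 15.4% of the 898 windows of the remainder had none. In replicate 2 these shares were 42.5% and 18.6%. Both replicates left 10 of 20 windows empty on 3L, 9 on X and 6 on 2L, and none of the 20 on 3R. A single window had no region in any of the 3 lists, on X from 21622828 to 21722827.

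The best filled window of the ends ran from 1400001 to 1500000 on 3R. It held 11 and 10 regions in the replicates and 19 in the combined list, which covered 19.8%, 18.1% and 43.2% of it. Among the 978 windows of the 4 arms it ranked 5, 2 and 4. In the other ends the most covered combined window lay from 22843558 to 22943557 on 3L, with 26.6%, from 21122828 to 21222827 on X, with 24.8%, and from 21211545 to 21311544 on 2L, with 23.3%. These ranked 93, 121 and 155 in the combined list.

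**Figure D3:**
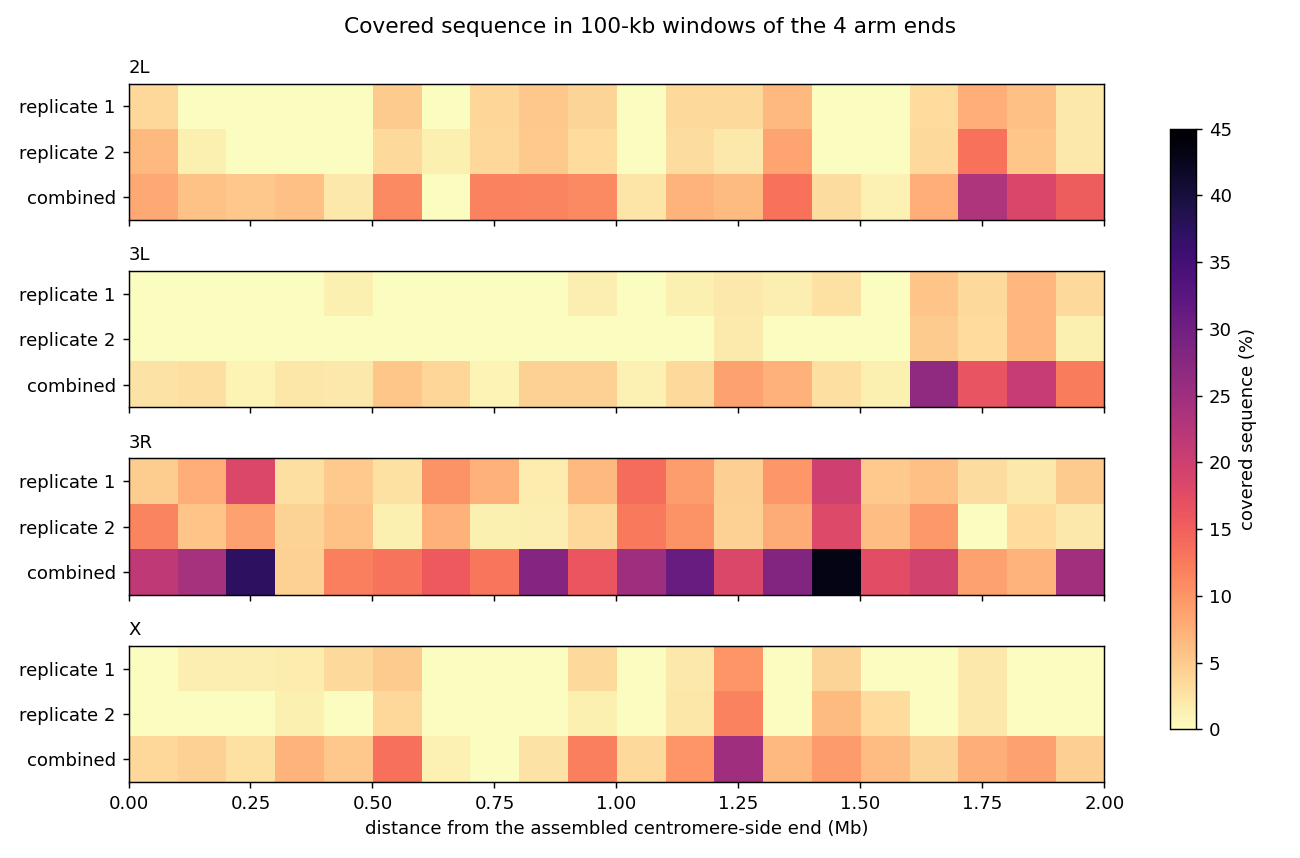
Covered sequence (percent, colour) in 100-kb windows of each arm end, against distance from the assembled centromere-side end (Mb), with 1 row for each list. The 3L row of replicate 2 is empty up to 1.2 Mb, and the darkest window, with 43.2% in the combined list, lies at 1.4 to 1.5 Mb on 3R.

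Coverage of the windows went together in the replicates. Their values over the 80 windows had a Spearman rho of 0.880, with 0.929 on 2L, 0.792 on 3L, 0.725 on X and 0.690 on 3R over 20 windows each. These are descriptions across windows of a pair of libraries.

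Replicate agreement was next measured by overlap of at least 1 bp. In replicate 1, 83 of the 139 regions in the ends overlapped a replicate 2 region, or 59.7% (95% Wilson interval 51.4 to 67.5), where 55.3% of all replicate 1 regions did and 55.9% of those in the remainder of the arms. In replicate 2, 84 of 128 overlapped, or 65.6% (57.0 to 73.3), where the background was 61.1% and the remainder 61.5%. The difference from the remainder was 3.86 and 4.13 percentage points, with a mean of 4.00. Both values count the same overlaps, once from each list, and are not independent. Their SD of 0.192 and the exact two-sided sign-flip permutation p of 0.5 (n = 2) thus measure no spread between replicates. The intervals of the ends contain the values of the remainder, so for the 4 ends together no difference beyond counting error was seen. This set is weighted to 3R, and it does not speak for each end. The direction also turned with the choice of regions: in the better scoring 50% of each list the difference was -3.87 and -8.26 points in the replicates (mean -6.06), with the ends lower in both. Within 1 Mb of the assembled end it was -7.64 points in replicate 1 and 1.30 in replicate 2 (mean -3.17), so there the replicates had opposite signs. No intervals were made for these alternatives. The shared bases made up 43.3% of the union of both lists in the ends and 40.8% in the remainder.

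By arm, the 2L end had 22 of 27 replicate 1 regions shared, or 81.5% (63.3 to 91.8), an interval that lies above the 58.7% of its remainder, but 22 of 33 replicate 2 regions, or 66.7% (49.6 to 80.2), against 64.8%. On 3L, 7 of 17 (41.2%, 21.6 to 64.0) and 7 of 10 (70.0%, 39.7 to 89.2) were shared, against 50.4% and 58.8% in its remainder. On X 12 of 19 (63.2%, 41.0 to 80.9) and 12 of 18 (66.7%, 43.7 to 83.7) were shared, against 56.2% and 61.5%. On 3R 42 of 76 (55.3%, 44.1 to 65.9) and 43 of 67 (64.2%, 52.2 to 74.6) were shared, against 57.7% and 60.9%. Each interval of 3L, X and 3R contains the share of the remainder. The innermost 500 kb of 2L, 3L and X had 2 of 8 replicate 1 regions shared (25.0%, 7.15 to 59.1). In replicate 2 it was 2 of 5 (40.0%, 11.8 to 76.9), and all of these lay on 2L. From 1 to 1.5 Mb on these arms 15 of 21 (71.4%, 50.0 to 86.2) and 15 of 19 (78.9%, 56.7 to 91.5) were shared, 9 of them on X in each replicate. The remainder of 2L, 3L and X had 55.1% and 61.8% shared, and these values lie inside the intervals of both steps.

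The 83 matched pairs lay close to each other. The midpoints of a pair were 88.5 bp apart in the median, and 73 of the 83 pairs were within 500 bp. Scores of a pair had a Spearman rho of 0.623 and widths 0.463, across pairs that come from the same 2 libraries. Shared regions were also the wider ones, with medians of 2015 bp for shared and 1539.5 bp for other regions of the ends in replicate 1, and 1996.5 and 1406.5 bp in replicate 2. The same held in the remainder, at 2047 and 1507 bp in replicate 1.

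**Figure D4:**
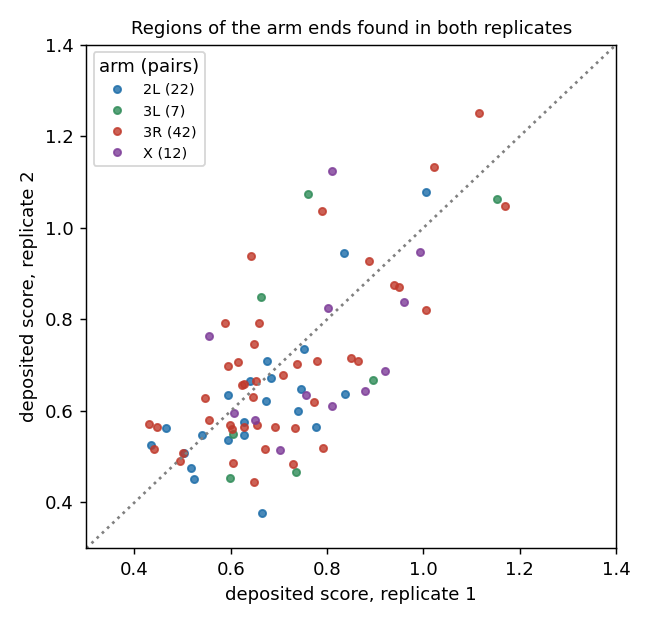
Deposited score in replicate 2 against that in replicate 1 for the 83 pairs of overlapping regions in the arm ends, coloured by arm; the dotted line marks equal scores. The highest pairs are from 3R and 3L, and the scores of a pair have a Spearman rho of 0.623.

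Since the combined list comes from these same samples, its overlap with the replicate lists is only described. Of its 509 regions in the ends, 84 overlapped both replicate lists, or 16.5% (13.5 to 20.0), against a background of 14.9% over the whole list. A further 339 overlapped neither, or 66.6% (62.4 to 70.6), against 65.0%. The arms differed here too. The share in neither list was 58.3% on 3R (51.7 to 64.6), below the 65.7% of its remainder, and 78.2% on 3L (68.4 to 85.5) and 73.9% on X (64.1 to 81.8), above the 67.5% and 61.9% of theirs. On 2L it was 68.2% (58.9 to 76.3), against 64.3%. Regions in neither list were narrow, with a median of 1232 bp in the ends, below the minimum width of 1301 bp that holds in the replicate lists.

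**Figure D5:**
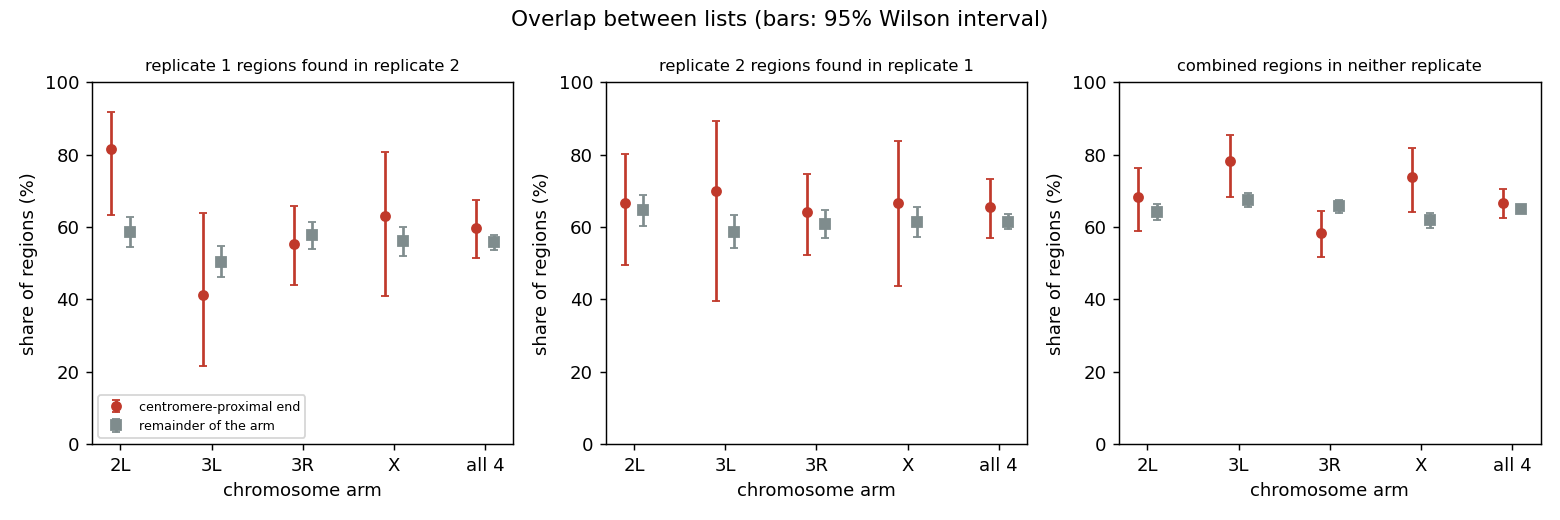
Share of regions (percent) with 95% Wilson intervals, for replicate 1 regions found in replicate 2, replicate 2 regions found in replicate 1 and combined regions found in neither list, by arm and for the 4 arms together. In the first 2 panels the intervals of the pooled ends contain the value of the remainder, and in the third the interval of the 3R end lies below its remainder and those of the 3L and X ends lie above theirs.

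Median widths over the 4 ends together were close to those of the remainder, while single arms went either way. The median width was 1859 bp in the ends and 1817 bp in the remainder in replicate 1, and 1850 and 1870 bp in replicate 2. The difference was 11 ± 43.8 bp (SD, n = 2) and changed sign between the replicates (exact two-sided sign-flip permutation p = 1). In the combined list the medians were 1431 and 1439 bp. There the end of 3R had wider regions than its remainder, with 1553 against 1420 bp. The other ends had narrower ones, with 1351.5 against 1506 bp on X, 1383 against 1456 bp on 2L and 1332 against 1391 bp on 3L. In the replicates the difference changed sign on 2L, 3R and X, and on X it was 4 and -190.5 bp. On 3L it was -45 and -37 bp. Regions of 5000 bp or more were 12 of 2247 in the remainder in replicate 1, or 0.534%, and 6 of 2049 in replicate 2, or 0.293%. None lay in the ends in either replicate list, but at such shares their absence from 139 and 128 regions shows no lack. At 3000 bp or more the shares in the 2 replicates were 2.88% and 3.91% in the ends and 4.63% and 4.05% in the remainder. In the combined list 2 of 509 regions in the ends, or 0.393%, and 52 of 8248 in the remainder, or 0.630%, reached 5000 bp. Both of those in the ends lay on 3R and overlapped both replicate lists.

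Each region carries an enrichment score from the authors, on a scale that the headers leave unstated, and scores are compared only within a list. Median scores in the ends were 0.665 against 0.711 in the remainder in replicate 1, and 0.634 against 0.661 in replicate 2. They were 0.475 against 0.487 in the combined list. The difference in the replicate lists was -0.0361 ± 0.0133 (SD, n = 2, exact two-sided sign-flip permutation p = 0.5, the smallest possible). This pooled value mixes arms in unlike shares. X, whose remainder scored 0.803 in replicate 1, held 19 of 139 regions of the ends there and 577 of 2247 of the remainder. In replicate 1 the pooled -0.0455 was larger in size than the difference on any arm, the largest being -0.0307 on 3R. In replicate 2 it was -0.0267, within the range of the arms. By arm, the difference was below 0 in both replicates on each of the 4 arms, though by only -0.000386 on 3R in replicate 2. The combined list did not share this on every arm, since its difference was 0.0225 on 3L and 0 on X.

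The best scoring combined regions of the ends that overlapped both replicate lists were the following. On 3R, 303393 to 306379 reached 1.15 in the combined list and 1.12 and 1.25 in the replicates, and ranked 164, 155 and 76 in the 3 lists. A stretch without a region in either replicate, from 307913 to 466085, followed close behind it. The next on 3R ran from 1299365 to 1301697, at 1.07, 1.02 and 1.13, and from 1088980 to 1091606, at 1.03, 1.17 and 1.05.

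On 3L the 3 best regions lay next to each other, 1.81 to 1.83 Mb from the assembled end. They ran from 22733571 to 22736330, with scores of 1.03, 1.15 and 1.06, from 22709405 to 22712819, with 0.811, 0.761 and 1.07, and from 22719464 to 22722535, with 0.638, 0.663 and 0.849, in the combined list, replicate 1 and replicate 2. No shared region of 3L lay within 1 Mb of the end.

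On X the best was from 21862172 to 21864325, with 0.943, 0.992 and 0.947. It was followed by 21220230 to 21223627, with 0.928, 0.810 and 1.12, and by 20630567 to 20632638, with 0.787, 0.921 and 0.687. On 2L the best was from 21167254 to 21169635, with 0.988, 1.01 and 1.08. The next, from 22959945 to 22962254, with 0.892, 0.835 and 0.945, was one of the few shared regions close to an assembled end, 50.4 kb away. The region from 22428572 to 22432066 followed, with 0.697, 0.752 and 0.735.

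The widest combined region of the ends lay on 3R from 1389706 to 1395886, 6181 bp long, and overlapped 1 region of replicate 1 and 2 of replicate 2. Those of X, from 21225419 to 21230276, and of 2L, from 21232021 to 21236023, were 4858 and 4003 bp long and met 1 region in each replicate. That of 3L, from 22830100 to 22833997, was 3898 bp long and overlapped no region of either replicate. No gene is named for these positions, as no release 5 annotation was used here.

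The highest combined scores in the ends had no counterpart in the replicate lists, a pattern found after the values had been seen. All 8 combined regions of the ends that scored 1.5 or more overlapped neither replicate list, and they were 1001 to 1153 bp wide. The replicate lists hold no region narrower than 1301 bp, so these positions could appear there only within a wider region. Their absence therefore does not show that the replicates lacked enrichment at these positions. The 8 were 1.57% of the 509 regions (95% Wilson interval 0.799 to 3.07). In the remainder 24 of 8248 regions, or 0.291% (0.196 to 0.433), reached that score, 12 of them in neither replicate list. At a score of 1 or more the ends had 16 regions, 12 of them in neither list, and the remainder had 141, of which 23 were in neither. The 95% Wilson interval of this share in the ends, 50.5 to 89.8%, contains the 66.6% of all combined regions there. In the remainder the share was 16.3% (11.1 to 23.3), below the 64.9% of all its combined regions. The 12 lay on every arm, with 4 on 2L, 3 on 3L, 3 on X and 2 on 3R. The same score of 3.17 was given to the region from 21048375 to 21049375 on 2L and to that from 1984244 to 1985245 on 3R. The cause was not tested.

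The limits of the ends fall between regions whose scores differ little in the combined list and more in some of the replicate lists. The combined regions just inside and just outside them scored 0.385 and 0.480 on 2L, 0.554 and 0.493 on 3L, 0.487 and 0.431 on 3R, and 0.631 and 0.637 on X. The widest steps in the replicate lists were 0.655 inside and 1.51 outside on 3L in replicate 1, and 0.621 and 1.36 on 2L in replicate 2. The heterochromatic sequences that release 5 keeps apart for these 4 arms had a density of 2.66 and 3.19 regions per Mb in the replicates and 20.4 in the combined list. The innermost 500 kb of 2L, 3L and X together had 5.33, 3.33 and 29.3. Those of 3L alone had 2.00, 0 and 18.0, below the heterochromatic sequences in every list, but this rests on 1, 0 and 9 regions. Those of 2L had 4.00, 8.00 and 36.0, above the heterochromatic sequences in every list. Those of X had 10.0, 2.00 and 34.0, above them in replicate 1 and the combined list and below them in replicate 2.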

How the data were processed

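The data were 3 lists of regions of significant enrichment, 1 for each ChIP replicate and 1 for the replicate set, with 1-based limits on FlyBase release 5, per the file headers. Each region has 1 deposited score, made by the authors on a scale that the headers leave unstated. The submitters' processing notes name Bowtie 0.12.7. No source used here gives the region caller, its threshold or the depth. The inputs entered only through the authors' calls. The members, comparisons and alternatives were chosen with earlier results of these data known.

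Regions were assigned to an end by midpoint, and regions of 2 lists were matched where they shared at least 1 bp. Arm lengths came from the file headers. Densities and coverage were taken over the full length of each stretch, with no correction for repeats or for bases where reads could not be placed. Values of the 2 replicate lists are given as mean and SD, with exact two-sided sign-flip permutation tests over replicates. Regions are not replicates, and the 95% Wilson intervals of shares hold counting error alone. The combined list has no replicate and no test. Alternatives changed the extent of the ends, the sequence compared, the arms, the scores kept, the merging of neighbours, the overlap and the window size. Named regions were the 3 best scoring combined regions of each end found in both replicates, the widest of each end and the regions nearest to an assembled end. Measurements were tested on simulated lists. Scripts ran in Python 3.11.15 with scipy 1.17.1, numpy 2.4.6, matplotlib 3.10.9 and pandas 2.3.3.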

Additional observations from a re-analysis of the deposited data

Results flagged for a closer look

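The end of 3R went the opposite way from the other ends in both replicates. On the log2 scale, its density ratio (end over remainder) exceeded that of 2L by 1.22, that of 3L by 2.29 and that of X by 2.13, as means of the 2 replicates. Its coverage ratio exceeded theirs by 1.18, 2.32 and 2.18. The correlation of coverage with distance was below 0 on 3R and above 0 on 2L and 3L in both replicates, with Spearman's rho higher by 0.393 on 2L and by 0.847 on 3L than on 3R. These differences between arms were not tested.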

How the results depend on the processing

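All alternatives were listed as planned, though they were chosen with earlier results of these data known. The density and coverage ratios of the ends stayed below 1 under each of them, and no test could pass its threshold. In the replicate lists, leaving out a replicate gave a density ratio of 0.688 to 0.694 and a coverage ratio of 0.675 to 0.678. It also gave a window rho of 0.183 to 0.192 and a width difference of -20 to 42 bp. The difference in shared regions was 3.86 and 4.13 points, but each share needs both lists, so neither replicate could be left out for it. The width difference was -40 bp without 3R. The replicate window rho was 0.0716 without 3L, 0.114 in the better scoring 50% and 0.314 without 3R, above 0 in both replicates each time. The difference in shared regions was -6.06 points in the better scoring 50% of each list. Within 1 Mb of the assembled end its mean was -3.17 points, with -7.64 in replicate 1 and 1.30 in replicate 2. In the combined list, the density and coverage ratios were 0.609 and 0.600 in the better scoring 50%, 0.566 and 0.548 within 1 Mb, 0.836 and 0.837 for ends of 3 Mb, 0.558 and 0.519 against the telomere side, 0.757 and 0.754 without 3L, 0.519 and 0.473 without 3R, and 0.760 and 0.779 without X. The combined width difference, -8 bp as reported, came to -85 bp with the better scoring 50%, -84 bp after merging, -90 bp against the telomere side, -109.5 bp without 3R and 33 bp without X. The share in both lists, 1.48 points higher in the ends, was -2.53 points in the better scoring 50%, -2.04 points within 1 Mb and -0.738 points without 3R. The combined window rho of 0.297 was 0.239 in the better scoring 50%, 0.260 and 0.311 with windows of 50 and 200 kb, 0.291 without 2L, 0.181 without 3L and 0.436 without 3R. The cause was not tested. No paired analysis was possible because each input entered only as the background named for its ChIP list. Depth is unknown, so a sparse end may hold regions too weak to be called. The part of each end where reads could be placed is also unknown, and its bearing on density and coverage was not tested.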
